A study of Saccharomyces cerevisiae with 6 samples.

Results

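The TYA-TYB genes of Ty elements are the genes through which the retrotransposons of budding yeast make their own proteins. Here they were taken as nuclear genes with a systematic name that the files list as exactly 2 rows less than 10 bp apart, with a summed length of at least 3500 bp. By this rule 44 of 7126 genes were members. They lay on 43 of the 50 Ty elements of the reference genome (build R64), namely 29 in Ty1, 10 in Ty2, 3 in Ty3 and 2 in Ty4. The reference names an element for each of them, and 43 of the 44 had the same start and end there. Another 3 genes with such a frameshift were under the length minimum and were left out.

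Total RNA was sequenced from 6 yeast samples in 3 groups of 2, each grown in YPD at 30 °C and moved to 39 °C for 2 h. All strains were mating type a, isogenic to S288C, and carried leu2D1, the lys2-128d allele (an insertion of a Ty1 long terminal repeat in LYS2) and a bar1 deletion (bar1D::NAT in WT and ck2ts, bar1D::KanMX6 in spt6-7SA). At ura3-52, itself a Ty insertion allele, WT and ck2ts held the construct HHF1-PGAL1/10-FLAG-HHT1-URA3. The ck2ts strain, altered in the protein kinase casein kinase 2, carried in addition cka1Δ0::KanMX6 and cka2D225N::NAT. The spt6-7SA strain carried his3D200, ura3Δ0, IWS1-13MYC::HIS3 and spt6D::kanMX6, and its only Spt6, a histone chaperone, came from the plasmid pcc11 (CEN, URA3, FLAG-spt6 7S-A). It therefore differed from WT at several loci besides SPT6, and each group was 1 strain. How many Ty elements each strain held was not measured, so a change in copy number and a change in RNA per copy cannot be told apart. Nor can fewer cells with Ty RNA and less of it per cell. The labels do not say that replicates were separate cultures, so the tests measure the spread between these samples. Sense reads of the deleted CKA1 numbered 202 and 100 in ck2ts, against 4970 and 3504 in WT. BAR1, deleted in all strains, gave 1 read in 1 library and 0 in the other 5. LEU2 went against its label: although the same leu2D1 allele is listed for all strains, it gave 3161 to 3713 reads in the WT and spt6-7SA libraries and 1 and 4 in ck2ts. Comparisons with ck2ts cover this difference too.

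A Ty element is flanked by long terminal repeats and is copied through an RNA that runs from one repeat to the other. TYA encodes the coat protein of the virus-like particle, and TYB encodes protease, integrase and reverse transcriptase. TYB is translated only when ribosomes slip forward by a base near the end of TYA, which keeps the enzymes scarce against the coat protein. Transcription of Ty1 depends on the invasive growth activators Ste12 and Tec1 and on the chromatin factors found as SPT genes, many of them isolated as suppressors of Ty or repeat insertions, SPT6 among them. Transcripts antisense to TYA are known in Ty1.

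The frameshift sites are shown because they define these genes: they lie where the file's rows for TYA and TYB meet. The capitals mark the 7-base slippery site within 40 bases around that junction. CTTAGGC stood in all 29 Ty1, 10 Ty2 and 2 Ty4 genes, and GCGAGTT in all 3 Ty3 genes. The lines below are from the R64 genome, at IV:1097349-1097388 (plus strand), II:31208-31247 (plus), VII:708440-708479 (plus) and VIII:86975-87014 (plus).
Ty1 YDR316W-B: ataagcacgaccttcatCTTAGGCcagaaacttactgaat
Ty2 YBL100W-B: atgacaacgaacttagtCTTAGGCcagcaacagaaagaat
Ty3 YGR109W-B: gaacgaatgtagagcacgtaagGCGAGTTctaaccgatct
Ty4 YHL009W-B: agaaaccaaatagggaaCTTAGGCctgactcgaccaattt
Around the site the families differed. Aligned on the slippery site, with 16 bases on each side, the sequence had 5 versions among the 29 Ty1 genes and 1 in each of Ty2, Ty3 and Ty4.

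Upstream, part of the Ty1 genes differed from Ty2 and the others were much like it. The stretch from 200 to 91 bases before TYA lies in the long terminal repeat, and 3 examples are shown because they differ in which motifs they hold and in where these lie. Capitals mark 3 motifs, searched on both strands. The motif of Tec1 has the letters CATTCC, which read GGAATG in the Ty1 lines because they hold it on the other strand. For Ste12 the letters searched were TGAAAC, and for the TATA box, which positions the polymerase, they were TATAAA. No matches overlap each other in these lines. The examples lie at XIV:102323-102432 (minus strand), V:449115-449224 (minus) and II:29735-29844 (plus).
Ty1 YNL284C-B: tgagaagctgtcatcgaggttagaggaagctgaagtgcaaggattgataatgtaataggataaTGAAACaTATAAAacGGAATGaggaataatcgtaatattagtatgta
Ty1 YER138C: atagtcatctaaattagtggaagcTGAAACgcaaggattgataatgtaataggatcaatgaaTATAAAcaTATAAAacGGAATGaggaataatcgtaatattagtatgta
Ty2 YBL100W-B: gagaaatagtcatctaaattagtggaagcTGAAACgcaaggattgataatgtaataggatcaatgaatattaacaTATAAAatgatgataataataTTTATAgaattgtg
In YNL284C-B the Ste12, TATA and Tec1 motifs followed each other within a short run of bases, whereas YBL100W-B held the Ste12 motif farther upstream and no Tec1 motif. CATTCC was present in this stretch in 20 of 29 Ty1 genes and 0 of 10 Ty2 genes. TGAAAC and TATAAA were present in all 39. The Ty1 genes without CATTCC held a stretch close to that of Ty2, with TTTATA as in YBL100W-B. In some of them, YDR098C-B among them, it matched that of a Ty2 gene apart from a small shift. Both Ty1 lines shown are of the form with CATTCC. In windows of 300 bases (250 before to 50 after the start), 10.88% of 6984 other nuclear features held CATTCC, 19.43% TGAAAC and 43.61% TATAAA. In windows of that length CATTCC was present in 20 of 29 Ty1, 1 of 10 Ty2, 3 of 3 Ty3 and 0 of 2 Ty4 genes. The 3 Ty3 windows had 1 sequence. The window of YJL113W in Ty4 (X:198428-198727) lay well inside its element, which starts at 197545. A match is a run of letters and not a measured binding site.

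The elements shared their place in the genome as well. Of the 43 elements, 33 (76.74%) lay within 1000 bp of a tRNA gene, against 26 of 293 other nuclear genes of at least 3500 bp (8.874%). The 2 Ty3 elements lay 16 and 18 bp from one, and Ty3 is known to integrate at the start sites of RNA polymerase III. Some Ty1 copies were far from any tRNA gene, up to 67832 bp for YHR214C-B.

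Copies of a family are so alike that most 50-base reads fit several of them, and the way such reads were counted shapes every value below. The sources used here do not state how reads with several matches were counted, so this was read from the counts. The TYA rows of YFL002W-A and YGR161W-B, which are identical in sequence, held the same number of reads in all 6 libraries (426322 in all), as a read counted at each of its places would give. The 4 TYA rows whose least repeated window occurs at 9 places held between 13163 and 13171 reads over the 6 libraries. The TYA rows of YDR316W-B and YGR161C-D, whose least repeated window occurs at 11 places, held 9 and 12. YDR098C-B has the same TYA row and 6133 reads, of which 12 lay outside its 3' part, next to TYB. Reads at more than about 10 places were thus nearly absent, and those at fewer places were counted at each. A count below is a placement of a read, and copies are not independent of each other. Windows of Ty1 TYB and of Ty2 TYB occurred at up to 34 places, those of Ty2 TYA at up to 13. Part of TYB may thus be shared by Ty1 and Ty2, and how many counted reads it held was not measured.

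A single stretch of TYA, starting at base 194, shows how copies that differ in sequence differ in the number of places of a window. The sequences are from IV:1096257-1096306 (plus strand), II:221523-221572 (plus) and XIV:101990-102039 (minus), and capitals mark bases that differ from the first line.
YDR316W-B: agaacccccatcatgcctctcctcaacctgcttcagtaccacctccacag
YBL005W-B: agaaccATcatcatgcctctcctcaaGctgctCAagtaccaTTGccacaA
YNL284C-B: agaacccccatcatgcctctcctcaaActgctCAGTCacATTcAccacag
The window of YDR316W-B occurs at 22 places in the genome. With 9 differences that of YBL005W-B occurs at 3, and with 10 differences that of YNL284C-B occurs at 6. Over all copies, 15.12% of Ty1 TYA windows and 21.09% of Ty1 TYB windows lay at 10 or fewer places. In Ty2 these shares were 65.97% and 35.34%, and in Ty3 and Ty4 all windows did. The Ty1 totals thus rest on a small share of the Ty1 sequence, unevenly spread over the copies: it was 8.414% of the windows of YER138C and 55.44% of those of YMR045C.

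**Figure D1:**
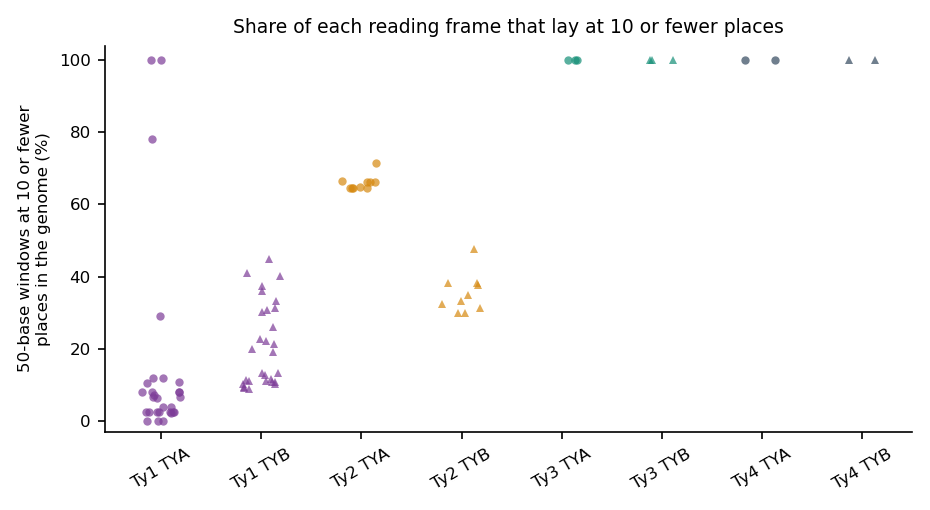
Each point is the TYA (circles) or TYB (triangles) row of 1 gene, and the vertical axis gives the percentage of its 50-base windows found at 10 or fewer places in the R64 genome. Ty3 and Ty4 rows stand at 100, while most Ty1 TYA rows stand near 0 and the family mean is 15.12%.

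The TYA-TYB genes took a large part of all sense counts: 7.57% and 5.22% in the WT libraries, 10.95% and 8.15% in ck2ts, with 10.78% and 8.54% in spt6-7SA. These are shares of placements and not of RNA, since a read can be counted at several copies and the most repeated reads are nearly absent. Levels are given as CPM, counts scaled to a common number of sense reads with TMM factors, and per 1000 countable windows (those at 10 or fewer places) where families are compared. On the latter scale the WT levels were 1599 ± 447 CPM in Ty1 (SD, n = 2), 834 ± 248 in Ty2, 18.4 ± 2.72 in Ty4 and 9.43 ± 2.27 in Ty3. The WT libraries did not overlap between any neighbours in this order. The Ty1 and Ty2 levels include reads counted up to 10 times, and Ty3 and Ty4 reads could also be counted at several places. None of these is thus a level per copy. In every family and group the sense total was higher in replicate 1 than in replicate 2, by 1.16-fold to 1.61-fold. The replicate number was therefore also fitted as a block. The blocked adjusted p is given where it changes the call of a total, and for some single genes. No label pairs the same-numbered libraries, so blocked values rest on a pairing read from these same counts. A gene or total was called where the adjusted p of edgeR's quasi-likelihood test (Benjamini-Hochberg over all features) was under 0.05. In the fit of the family totals, 32.5% of 6696 features rose and 32.8% fell in ck2ts, 27.0% and 25.0% in spt6-7SA, and 28.0% and 25.4% between spt6-7SA and ck2ts.

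In ck2ts the sense RNA of Ty1, Ty3 and Ty4 rose, by between 1.70-fold and 1.98-fold, and that of Ty2 did not pass the test. The Ty1 total was 56229 and 37666 CPM in WT and 89289 and 70140 in ck2ts. Both ck2ts libraries were above both WT libraries (log2 fold change 0.77, SE 0.24, edgeR adjusted p = 0.0248). Leaving out WT replicate 2 ended this call (0.51, adjusted p = 0.121), as did leaving out ck2ts replicate 1 (0.58, adjusted p = 0.112). The Ty2 total was 22448 and 14634 CPM in WT and 20787 and 14364 in ck2ts, and the groups overlapped (log2 fold change -0.07, SE 0.25, edgeR adjusted p = 0.818).

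The Ty3 total was 149.7 and 106.2 CPM in WT and 281.4 and 175.3 in ck2ts, with no overlap (log2 fold change 0.84, SE 0.30, edgeR adjusted p = 0.0444). It was not called when WT replicate 2 (0.62, adjusted p = 0.206) or ck2ts replicate 1 (0.46, adjusted p = 0.219) was left out. YIL080W and YIL082W-A are 2 gene models on the same element, so its reads stand in this total in duplicate. With 1 gene per element, a setting added after the data were seen, the call was missed as well (0.84, edgeR adjusted p = 0.0518). It was also missed with no count filter (edgeR adjusted p = 0.0517) and with DESeq2 (adjusted p = 0.0557). The Ty4 total was 200.8 and 162.9 CPM in WT and 399.4 and 319.9 in ck2ts, again with no overlap (log2 fold change 0.99, SE 0.15, edgeR adjusted p = 0.00071). The Ty4 call held without each library in turn.

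The unequal change of Ty1 and Ty2 shows in their ratio, which needs no scaling between libraries. Reads in TYB sequence common to both families would stand in both totals, and their number was not measured. The Ty1 total was 2.50 and 2.57 times the Ty2 total in WT, 4.30 and 4.88 times in ck2ts, and 2.81 and 2.49 times in spt6-7SA. The ck2ts ratios lay above all others and those of WT and spt6-7SA overlapped (exact two-sided permutation test of ck2ts against WT, p = 0.333, the smallest that 2 against 2 allows). Within replicate numbers, Ty1 in ck2ts was 1.59-fold and 1.86-fold its WT level, and Ty2 was 0.926-fold and 0.982-fold.

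**Figure D2:**
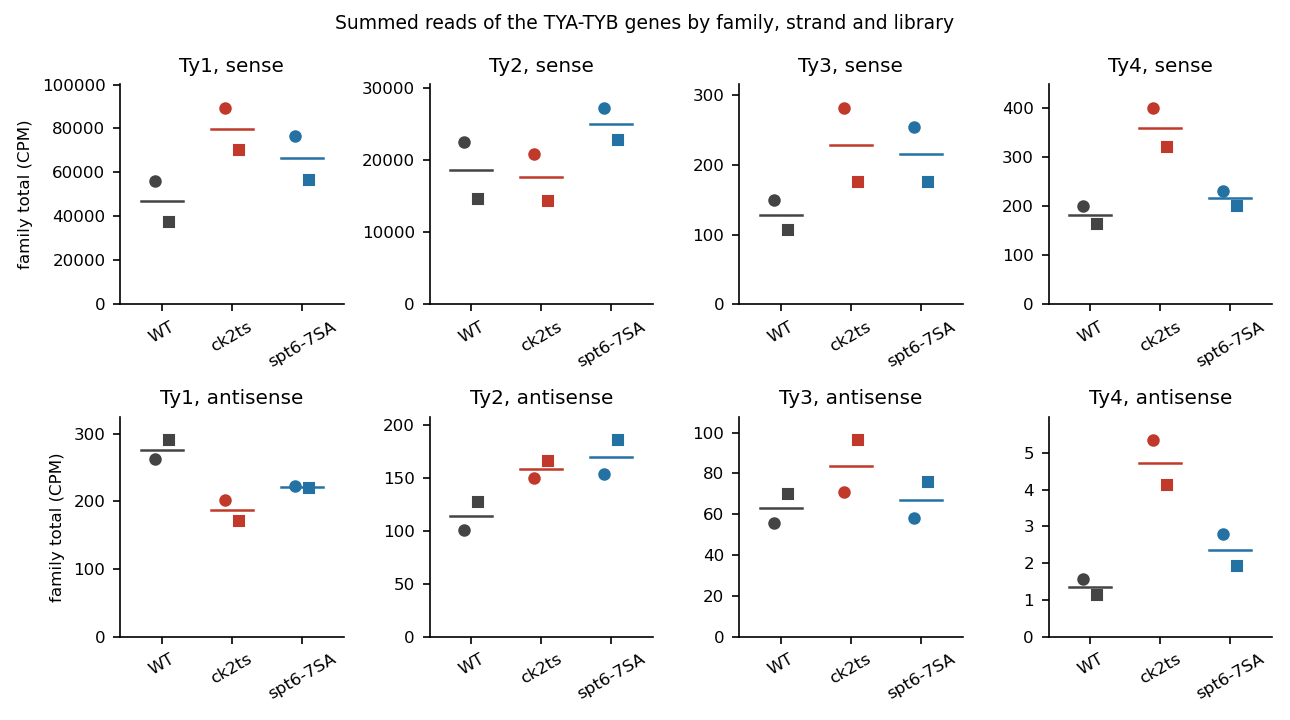
Family totals in CPM (vertical axes from 0, each panel with its own scale) on the sense strand (top) and the antisense strand (bottom); circles are replicate 1, squares replicate 2 and lines group means. Ty4 sense is highest in ck2ts (399.4 and 319.9 CPM), and Ty1 antisense is highest in WT.

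**Figure D3:**
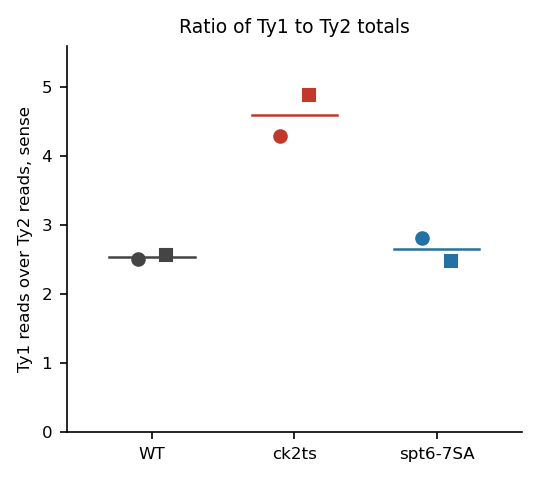
Ratio of the Ty1 to the Ty2 sense total in each library (circles replicate 1, squares replicate 2, lines means). The ck2ts libraries stand at 4.30 and 4.88, the other 4 between 2.49 and 2.81.

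In spt6-7SA every family total was above its WT mean, but none passed the unblocked test. The Ty1 total was 76405 and 56662 CPM (log2 fold change against WT 0.51, SE 0.24, edgeR adjusted p = 0.114, with the replicate block 0.00104). Both libraries were above both WT libraries, if by little, and without WT replicate 1 the call was made (0.83, adjusted p = 0.0439). The Ty2 total was 27180 and 22781 CPM, both above WT (log2 fold change 0.44, SE 0.25, edgeR adjusted p = 0.194, with the block 0.00424). The Ty3 total was 253.9 and 175.9 CPM, both above WT (log2 fold change 0.75, SE 0.30, edgeR adjusted p = 0.0747, with the block 1.1e-05). With ck2ts replicate 1 or 2 left out of the shared fit, this p was 0.0433 or 0.0414. The Ty4 total was 231.6 and 199.5 CPM, which overlapped WT by a narrow margin (log2 fold change 0.25, SE 0.15, edgeR adjusted p = 0.197, with the block 0.0132).

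Between the mutants, Ty4 was lower in spt6-7SA than in ck2ts (log2 fold change -0.74, SE 0.15, edgeR adjusted p = 0.00461). Ty1 differed by -0.26 (edgeR adjusted p = 0.390, with the block 0.0392) and Ty2 by 0.51 (edgeR adjusted p = 0.135, with the block 0.00176). Ty3 differed by -0.09 (edgeR adjusted p = 0.819). Comparisons with WT share the WT libraries.

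Among the single genes, 21 of 44 rose in ck2ts and 0 fell, where 32.1% of 6776 features rose and 32.4% fell. By family, 17 of 29 Ty1 genes, 0 of 10 Ty2, 2 of 3 Ty3 and 2 of 2 Ty4 were called. The median log2 fold change of the Ty1 genes was 0.78 (0.33 to 1.17), beside a median of 0.02 over all features. With the replicate block 34 members were called, without WT replicate 2 there were 12, and without ck2ts replicate 1 there were 11. In spt6-7SA 8 of 44 rose, all in Ty1, and 0 fell, where 25.9% of all features rose and 24.7% fell. With the block 39 rose, and 19 did without WT replicate 1. None was called without WT replicate 2 or without spt6-7SA replicate 1. Between the mutants 0 rose and 2 fell, the Ty4 genes, where 27.2% of features rose and 25.1% fell. The block raised the calls over all 6776 features too. With it 2502 rose and 2496 fell in ck2ts, 2246 and 2152 in spt6-7SA, and 2298 and 2121 between the mutants. Among the members 9 rose and 17 fell between the mutants with the block. Without WT replicate 1, WT replicate 2 or ck2ts replicate 1, 2, 3 and 2 rose, and 1 fell without spt6-7SA replicate 2.

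YGR161C-D (chromosome VII, 817747 to 823015, minus strand) and YBR012W-B (chromosome II, 259869 to 265140, plus strand) had the largest rises of the Ty1 genes in both mutants. YBR012W-B stood at 1366 and 949.3 CPM in WT, 2827 and 2387 in ck2ts, with 2120 and 1868 in spt6-7SA. All 4 mutant libraries were above WT, in ck2ts by 1.17 (SE 0.20, edgeR adjusted p = 0.00142) and in spt6-7SA by 0.78 (SE 0.20, edgeR adjusted p = 0.0138) on the log2 scale. YGR161C-D stood at 1518 and 1052 CPM in WT, 3180 and 2613 in ck2ts, with 2457 and 1929 in spt6-7SA. It rose by 1.17 in ck2ts (edgeR adjusted p = 0.00241) and by 0.77 in spt6-7SA (edgeR adjusted p = 0.0223). These levels are not per length and are not compared between genes.

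The 3 Ty1 genes with the most unique sequence were YNL284C-B (chromosome XIV, 96964 to 102232, minus strand), YNL054W-B (chromosome XIV, 519456 to 524706, plus) and YMR045C (chromosome XIII, 357359 to 362627, minus). Of their windows, 13.23%, 11.37% and 9.265% were unique. YMR045C stood at 4084 and 2680 CPM in WT, 7480 and 5809 in ck2ts, with 6042 and 4535 in spt6-7SA. Both mutants were above both WT libraries, and the gene rose in ck2ts (log2 fold change 0.97, edgeR adjusted p = 0.0112) but missed the threshold without the block in spt6-7SA (0.65, edgeR adjusted p = 0.0663, with the block 0.000249). YNL054W-B also rose in ck2ts (0.89, edgeR adjusted p = 0.0145) and stood at 0.61 in spt6-7SA (edgeR adjusted p = 0.0704, with the block 0.00028). YNL284C-B, at 4438 and 2803 CPM in WT and 6719 and 4916 in ck2ts, passed with the block alone (0.68, edgeR adjusted p = 0.0745, with the block 7.88e-05). In spt6-7SA its log2 fold change was 0.39 (edgeR adjusted p = 0.298, with the block 0.0065).

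The 3 Ty2 genes with the most unique sequence were YBL100W-B (chromosome II, 29935 to 35248, plus strand), YDR261W-B (chromosome IV, 981462 to 986775, plus) and YOR343W-B (chromosome XV, 970578 to 975891, plus). YBL100W-B stood at 1729 and 1176 CPM in WT, 1621 and 1148 in ck2ts, with 2175 and 1778 in spt6-7SA. Its ck2ts libraries overlapped WT and its spt6-7SA libraries were both higher. Sense log2 fold changes in ck2ts were -0.07 for YBL100W-B, -0.03 for YDR261W-B and 0.04 for YOR343W-B (edgeR adjusted p from 0.817 to 0.921, and none called with the block). In spt6-7SA they were 0.44 for YBL100W-B (edgeR adjusted p = 0.164, with the block 0.00297), 0.35 for YDR261W-B (0.251, with the block 0.0126) and 0.23 for YOR343W-B (0.437, with the block 0.0703).

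In Ty3, YGR109W-B (chromosome VII, 707610 to 712254, plus strand) stood at 54.5 and 37.9 CPM in WT, 102.7 and 64.2 in ck2ts, with 89.2 and 61.9 in spt6-7SA. Both mutants were above WT, with a call in ck2ts (log2 fold change 0.85, edgeR adjusted p = 0.0488) and, in spt6-7SA, one with the block alone (0.71, edgeR adjusted p = 0.0988, with the block 4.41e-06). YIL080W and YIL082W-A (chromosome IX, 205635 to 210357 and 205635 to 210132, plus strand) had log2 fold changes of 0.81 and 0.84 in ck2ts. The first had an edgeR adjusted p of 0.0589 (with the block 6.25e-07) and the second one of 0.0397. In spt6-7SA they stood at 0.74 and 0.81 (edgeR adjusted p = 0.0932 and 0.0556, with the block 3.95e-06 and 3.3e-06).

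In Ty4, the genes were YHL009W-B (chromosome VIII, 85909 to 91318, plus strand) and YJL113W (chromosome X, 198678 to 203325, plus). Of their windows, 1.41% and 26.9% were unique. They share reads, so their similar values are not separate results. YHL009W-B stood at 110.8 and 89.4 CPM in WT, 215.2 and 172.9 in ck2ts, with 128.0 and 109.6 in spt6-7SA. YJL113W stood at 90.1 and 73.5, 184.2 and 147.1, and 103.6 and 89.9. Both genes were highest in the ck2ts libraries, and their spt6-7SA libraries overlapped WT. The log2 fold changes in ck2ts were 0.96 (SE 0.15, edgeR adjusted p = 0.00109) and 1.02 (SE 0.15, edgeR adjusted p = 0.000716). In spt6-7SA they were 0.25 (edgeR adjusted p = 0.210, with the block 0.00873) and 0.24 (edgeR adjusted p = 0.211, with the block 0.0102).

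**Figure D4:**
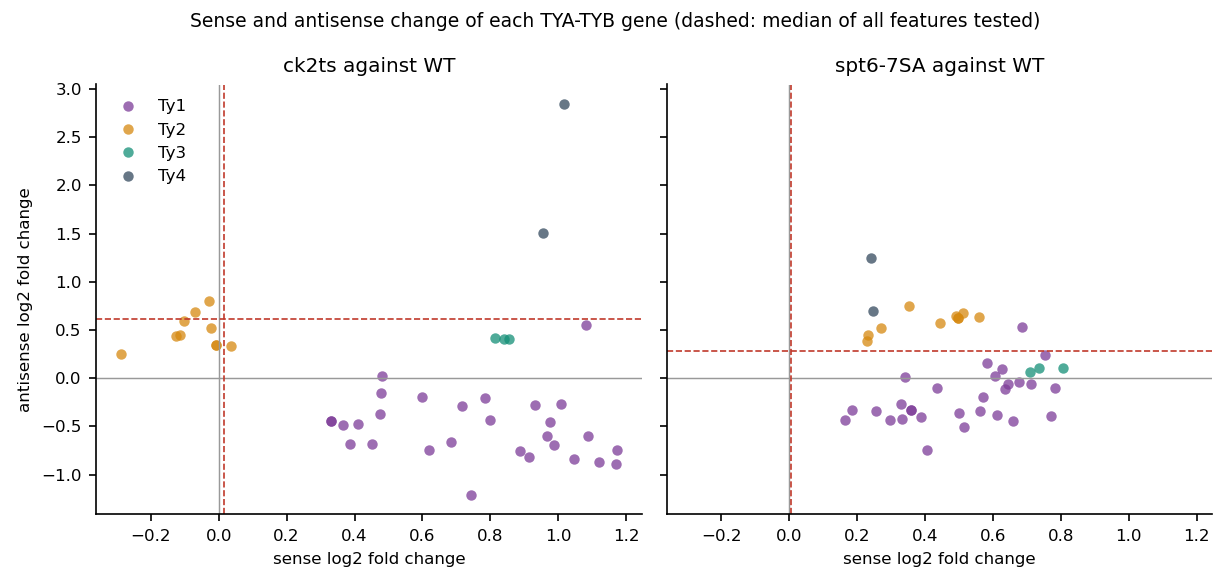
Each point is 1 TYA-TYB gene, with its sense (horizontal) and antisense (vertical) log2 fold change against WT in ck2ts (left) and spt6-7SA (right); grey lines mark 0 and dashed lines the median of all features tested. In ck2ts the Ty1 genes lie to the right and mostly below 0 on the antisense axis, where the median of all features is 0.62; copies of a family share reads.

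On the antisense strand the families parted further. In ck2ts the Ty1 antisense total fell, while the median log2 fold change of all 6558 features was 0.62 in ck2ts and 0.28 in spt6-7SA, at sense scaling. In the antisense fit of the totals, 48.7% of 6482 features rose and 13.6% fell in ck2ts, 31.2% and 10.6% in spt6-7SA, and 15.0% and 33.1% between the mutants. The Ty1 antisense total was 262.0 and 290.3 CPM in WT, 202.4 and 171.3 in ck2ts, with 223.1 and 220.2 in spt6-7SA. Every mutant library was below both WT libraries. The ck2ts total fell by 0.56 on the log2 scale (SE 0.14, edgeR adjusted p = 0.00281), and it differed by -0.31 in spt6-7SA (edgeR adjusted p = 0.0908, with the block 0.0385). No member overlaps an annotated gene on the other strand.

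The Ty2 antisense total was 100.9 and 127.2 CPM in WT, 149.98 and 165.6 in ck2ts, with 153.7 and 185.2 in spt6-7SA. Every mutant library was above WT, by 0.47 on the log2 scale in ck2ts (edgeR adjusted p = 0.0139) and 0.58 in spt6-7SA (edgeR adjusted p = 0.00689). Without WT replicate 1 these were 0.32 (adjusted p = 0.148) and 0.42 (adjusted p = 0.0855). They also lost the call without ck2ts replicate 2 (0.40, adjusted p = 0.0765) and without spt6-7SA replicate 2 (0.45, adjusted p = 0.0899). The Ty2 change in ck2ts was smaller than the median of all features.

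The Ty3 antisense total was 55.8 and 69.97 CPM in WT, 70.9 and 96.2 in ck2ts, with 58.0 and 75.9 in spt6-7SA. The ck2ts libraries lay above WT by a narrow margin (log2 fold change 0.41, edgeR adjusted p = 0.0514, with the block 0.00254). Leaving out WT replicate 2, ck2ts replicate 1, spt6-7SA replicate 1 or spt6-7SA replicate 2 gave adjusted p-values of 0.0207, 0.0161, 0.0420 and 0.0428. Those of spt6-7SA overlapped WT (0.10, edgeR adjusted p = 0.683). Between the mutants Ty3 differed by -0.32 (edgeR adjusted p = 0.151, with the block 0.0171), and without ck2ts replicate 1 by -0.52 (adjusted p = 0.0476). The single Ty3 genes stood between 0.40 and 0.41 in ck2ts, and all 3 were called with the block alone.

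The Ty4 antisense total was small, at 1.56 and 1.13 CPM in WT (125 and 65 reads), 5.34 and 4.11 in ck2ts (346 and 222 reads), with 2.79 and 1.92 in spt6-7SA (186 and 132 reads). No libraries of the 3 groups overlapped. The total rose in ck2ts by 1.81 on the log2 scale (3.50-fold, SE 0.24, edgeR adjusted p = 9.57e-06) and in spt6-7SA by 0.80 (SE 0.24, edgeR adjusted p = 0.0153). The spt6-7SA call ended when WT replicate 2 (0.61, adjusted p = 0.110) or spt6-7SA replicate 1 (0.52, adjusted p = 0.219) was left out. Ty4 was also lower in spt6-7SA than in ck2ts (-1.004, edgeR adjusted p = 0.00207; -0.75 and 0.0550 without spt6-7SA replicate 2). YJL113W had 16 and 11 antisense reads in WT, 110 and 61 in ck2ts, with 37 and 26 in spt6-7SA. It rose in both mutants (log2 fold changes 2.84 and 1.24, edgeR adjusted p = 1.1e-05 and 0.0231).

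Counted by gene, 8 of 44 antisense levels rose in ck2ts and 18 fell, where 48.2% of all features rose and 14.0% fell. Those that fell were all in Ty1 (18 of 29), and those that rose were 6 of 10 in Ty2 and 2 of 2 in Ty4. With the block 15 members rose, where 3196 of all 6558 features rose and 949 fell. Without WT replicate 2, 15 rose and 8 fell; without WT replicate 1, 4 rose; without ck2ts replicate 2, 10 fell. In spt6-7SA 12 rose (10 of 10 in Ty2, 2 of 2 in Ty4) and 8 fell, all in Ty1, where 30.9% rose and 10.8% fell. Without WT replicate 1, 3 rose and 3 fell, and without spt6-7SA replicate 2, 6 rose and 0 fell. Without WT replicate 2 none fell, and without spt6-7SA replicate 1 there was 1 that fell. Between the mutants 15.0% of features rose and 32.7% fell (with the block 1046 and 2170 of 6558). Among the members 6 rose and 2 fell there (with the block 11 and 5). These counts were 2 and 1 without spt6-7SA replicate 2, and 4 fell without ck2ts replicate 1.

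The largest antisense rises in Ty2 were at YDR261W-B in both mutants, with YBL100W-B in ck2ts and YDR034C-D (chromosome IV, 514043 to 519356, minus strand) in spt6-7SA. YDR261W-B stood at 7.62 and 8.73 antisense CPM in WT, 14.2 and 14.1 in ck2ts, with 13.3 and 14.1 in spt6-7SA. The mutant libraries were all above WT (log2 fold changes 0.80 and 0.75, edgeR adjusted p = 0.000119 and 0.000473). Among Ty1, YNL054W-B stood at 31.0 and 32.4 antisense CPM in WT, 20.6 and 17.1 in ck2ts, with 24.2 and 24.5 in spt6-7SA. The mutants were both below WT, with falls of 0.75 (edgeR adjusted p = 0.000218) and 0.38 (edgeR adjusted p = 0.0351) on the log2 scale.

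**Figure D5:**
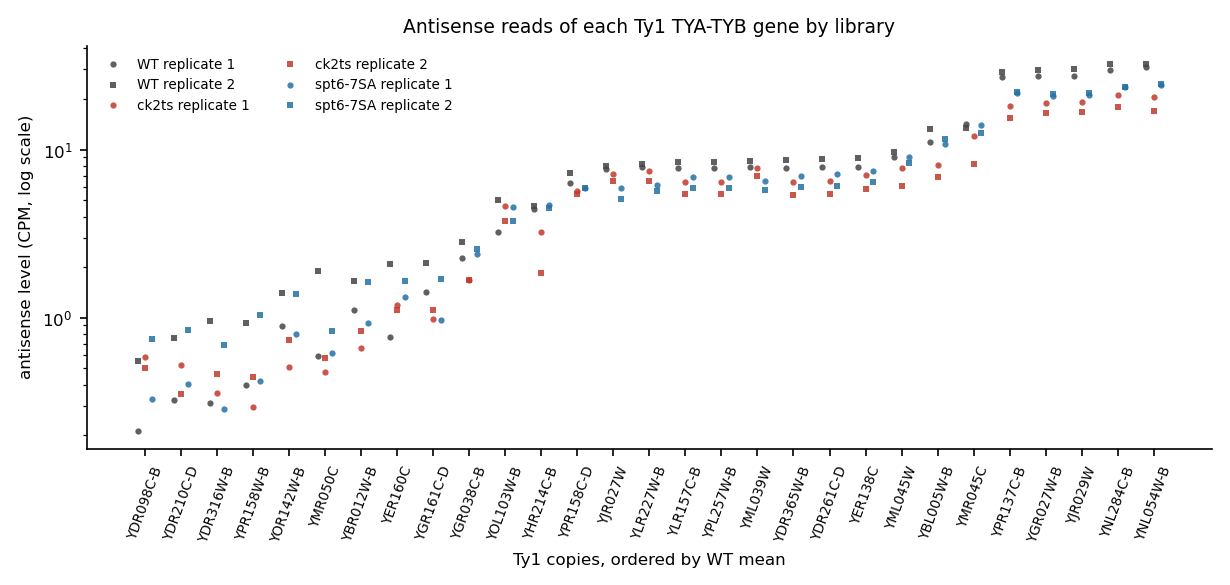
Antisense level (CPM, log scale) of each Ty1 gene in the 6 libraries, ordered by WT mean, with circles for replicate 1 and squares for replicate 2. Levels are to be compared between groups within a gene and not between genes, whose countable share differs; the 5 genes at the right stand between 28.1 and 31.7 CPM in WT and below that in both mutants.

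Nearly all antisense reads of Ty1 and Ty2 lay in TYA. In Ty1 TYA held 94.3% and 87.2% of them in WT, 90.8% and 90.7% in ck2ts, with 92.6% and 88.0% in spt6-7SA. In Ty2 these shares were between 94.4% and 96.6%. In Ty1 TYA, antisense reads made up 4.91% and 7.32% of both strands in WT, 1.92% and 2.31% in ck2ts, with 2.91% and 3.78% in spt6-7SA, with no overlap among the 3 groups. In Ty1 TYB they made up between 0.0234% and 0.108%.

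Ty3 stood apart in its strand balance. Antisense reads were 27.2% and 39.7% of all Ty3 reads in WT, 20.1% and 35.4% in ck2ts, with 18.6% and 30.2% in spt6-7SA. These ranges overlapped, and replicate 2 had the larger share in each group. In Ty3 TYA, the coat protein frame, antisense reads outnumbered sense reads in every library (65.3% to 93.2%). In Ty1 the antisense share was 0.464% and 0.765% in WT, 0.226% and 0.244% in ck2ts, with 0.291% and 0.387% in spt6-7SA, with no overlap between WT and either mutant. The exact two-sided permutation test gave p = 0.333 for each mutant, the smallest possible. In 254 other nuclear genes of at least 3500 bp with no gene on the opposite strand, the share was 1.00% and 1.03% in WT, 2.14% and 1.59% in ck2ts, with 1.37% and 1.26% in spt6-7SA.

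Tested as a change of antisense against sense, 13 Ty1 genes fell in ck2ts and 1 gene, YJL113W of Ty4, rose, where 16.3% of features fell and 45.2% rose. The Ty1 total changed by -1.35 (SE 0.60, edgeR adjusted p = 0.0590, with the block 0.0449; 0.0032 without WT replicate 1), beside a median of 0.69 over the 6311 features of that fit, of which 45.8% rose and 16.2% fell. The Ty4 total changed by 0.83 (edgeR adjusted p = 0.0551; 0.0466 without ck2ts replicate 2). In YBR012W-B antisense against sense fell by 2.06 on the log2 scale (edgeR adjusted p = 0.0072). With the block 15 Ty1 genes fell, and in the blocked fit of totals 2945 of 6311 features rose and 1077 fell in ck2ts. In spt6-7SA no member passed this test (with the block YIL082W-A and YGR109W-B fell, by 0.71 and by 0.64, adjusted p = 0.0253 and 0.0496), where 27.5% of features rose and 13.9% fell (28.0% and 14.2% in the fit of totals). Between the mutants none passed either (with the block YPR158W-B rose by 1.36, adjusted p = 0.0425), where 16.4% rose and 34.5% fell (16.6% and 35.2%). The Ty1 total changed by -0.83 in spt6-7SA against WT (edgeR adjusted p = 0.280) and by 0.52 between the mutants (edgeR adjusted p = 0.482).

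Within the element, the balance of TYA and TYB was examined as the share of sense reads in TYB. In Ty2 it was 61.1% and 63.3% in WT, 65.2% and 67.6% in ck2ts, with 60.8% and 63.0% in spt6-7SA. The ck2ts libraries were above all others (exact two-sided permutation test against WT, p = 0.333). Windows of Ty2 TYB lay at up to 34 places and those of Ty2 TYA at up to 13, so TYB reads may be shared with Ty1. Whether Ty1 reads add to this share was not tested. The files also count a part at the 3' end and one at the 5' end of each row, without defining them. The change of 3' against 5' in Ty2 in ck2ts was 0.65 on the log2 scale (SE 0.23, edgeR adjusted p = 0.2001, with the block 0.00017). No total passed this test without the block. Of 3372 rows 2.11% rose and 0.623% fell in ck2ts, 0.771% and 0.0297% in spt6-7SA, and 0.830% and 0.534% between the mutants. Between spt6-7SA and ck2ts it was -0.64 in Ty2 (edgeR adjusted p = 0.319, with the block 0.00031) and -0.61 in Ty3 (edgeR adjusted p = 0.466, with the block 0.00776). In Ty1, TYB held between 89.5% and 91.5% of the sense reads. In Ty3 it held 95.5% and 97.5% in WT, 94.0% and 95.6% in spt6-7SA. Countable windows numbered 5523 in TYA and 23840 in TYB in Ty1, and 8205 and 14033 in Ty2. The TYB share is thus to be compared between groups and not between families.

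The host genes that act on Ty elements were counted in 6 lists with 64 symbols, all measured, and compared on the sense strand with the shares of all features given above. Of 17 activators of Ty transcription, 3 rose and 6 fell in ck2ts, with a median log2 fold change of -0.19 (with the block 6 rose and 9 fell). GCR1, an activator of glycolytic genes that Ty2 also uses, rose from 84.7 ± 6.58 to 206 ± 4.93 CPM (SD, n = 2; 1.28 on the log2 scale, edgeR adjusted p = 2.4e-05). STE12, the pheromone and invasive growth activator, fell from 130 ± 12.9 to 48.8 ± 2.12 CPM (-1.41, edgeR adjusted p = 2.8e-05). RAP1, a general activator and telomere protein, fell by 1.18 on the log2 scale. In spt6-7SA 4 activators rose and 3 fell (with the block 6 and 5). GCR1 rose by 0.54, RAP1 fell by 0.54 and GCN5, the histone acetyltransferase of SAGA, fell by 0.44 on the log2 scale.

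Of 10 genes of the invasive growth kinase pathway, 3 rose and 4 fell in ck2ts (with the block 3 and 6). In spt6-7SA 4 of them rose and 0 fell (with the block 5 and 2). FUS3, a kinase of the mating pathway that restrains Tec1, fell from 49.3 ± 3.86 to 17.2 ± 0.42 CPM in ck2ts (-1.52 on the log2 scale, edgeR adjusted p = 2e-05) and, at 64.3 ± 4.97 CPM, was higher in spt6-7SA than in WT (0.38, edgeR adjusted p = 0.0137). STE11, a kinase at the head of the cascade, rose by 1.09 in ck2ts and 0.35 in spt6-7SA. TEC1, the partner of Ste12 at Ty1, rose in spt6-7SA from 32.9 ± 6.82 to 67.3 ± 14.7 CPM (1.03, edgeR adjusted p = 0.0104) and had a log2 fold change of -0.19 in ck2ts (edgeR adjusted p = 0.503, with the block 0.028).

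Of 16 SPT genes found through Ty or repeat insertions, 2 rose and 5 fell in ck2ts (with the block 5 and 7), and 4 rose and 2 fell in spt6-7SA (with the block 9 and 3). SPT21, which acts on histone gene transcription, rose by 0.93 in ck2ts and 0.70 in spt6-7SA. HTA1, which encodes histone H2A, fell by 1.04 in ck2ts and by 0.84 in spt6-7SA. SPT15, the TATA-binding protein gene, fell by 0.76 in ck2ts, and SPT20, a SAGA subunit gene, rose by 0.45 in spt6-7SA.

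Of 10 RNA decay factors that act on Ty RNA, 0 rose and 5 fell in ck2ts, and 0 rose and 4 fell in spt6-7SA, with medians of -0.27 and -0.19. NAM7 (UPF1), the helicase of nonsense-mediated decay, fell by 0.77 in ck2ts. PAT1 and LSM1, which bind mRNA ends ahead of decapping, fell by 0.59 and by 0.62 there. In spt6-7SA LSM1 fell by 0.47, DHH1, a decapping helicase gene, by 0.44, and DBR1, the debranching enzyme gene needed for full Ty1 transposition, by 0.46.

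Of 7 RTT genes, found as regulators of Ty1 transposition, 3 rose and 1 fell in ck2ts, and 3 rose and 0 fell in spt6-7SA. RTT101, a cullin gene, rose by 0.71 and 0.38, and RTT105 by 0.77 and 0.65. In ck2ts RTT106, a histone chaperone gene, fell by 0.29, and in spt6-7SA RTT107, a DNA repair scaffold gene, rose by 0.34. Of 12 genes for RNA polymerase III and factors at Ty targets, 4 rose and 4 fell in ck2ts, and 3 rose and 3 fell in spt6-7SA (with the block 5 and 4). RPC40, whose product binds the Ty1 integrase, fell from 311 ± 14.8 to 106 ± 5.98 CPM in ck2ts (-1.56, edgeR adjusted p = 1.5e-05) and to 210 ± 0.0427 in spt6-7SA (-0.57). RPO31, the largest subunit gene of the polymerase, fell by 0.99 in ck2ts. In spt6-7SA TFC3 rose by 0.53 and TFC7 fell by 0.53, both of them TFIIIC subunit genes.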

How the data were processed

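Per the labels, hot phenol was used to extract total RNA, and after removal of ribosomal RNA it was sequenced on 1 end as stranded reads of 50 bp. The submitters' processing notes name Trimmomatic, BWA, SAMtools and build R64, without versions. The deposited files hold raw read counts per exon on each strand, with further counts for a 5' and a 3' part. Rows were summed per gene. Sense counts per library were 83375420 and 58157852 (WT), 65546990 and 56307173 (ck2ts), and 64305808 and 64198311 (spt6-7SA).

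All features were fitted with edgeR 4.0.16 (glmQLFit, robust, TMM, filterByExpr with a minimum count of 10; R 4.3.3), with Benjamini-Hochberg adjustment. This tested 6776 features on the sense and 6558 on the antisense strand, the latter scaled by sense library sizes. For totals, the members and 42 reading frames nested in them were replaced by 4 family sums. Antisense against sense, and 3' against 5' (3372 rows), were interaction fits with the library as a block. Single values were compared with exact permutation tests (scipy 1.17.1).

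Same-numbered libraries deviated together (correlations of 0.476, 0.352 and 0.455 over 6262 genes), so the numbers were taken to pair the samples. The titles give the numbers but state no pairing, so the block is an assumption drawn from the counts. Places of 50-base windows were counted in R64, whose coordinates matched 6036 of 6048 genes. Members and lists were chosen with earlier results of these data known. Named genes were all of Ty3 and Ty4, the 3 most unique copies of Ty1 and Ty2, their 2 largest sense changes and antisense rises that passed, and up to 3 genes per list with the smallest p. YER138C, YDR316W-B and YBL005W-B were chosen afterwards as examples of sequence, and others as ends of a range or for their shared counts. Alternatives were other scalings, filters, DESeq2 1.42.0, TYB alone, the block and leaving out each library.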

Additional observations from a re-analysis of the deposited data

How the results depend on the processing

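The side of the threshold and the direction were kept, with counts within 1.5 times and shares keeping the sign of their difference, for 364 of 402 values recomputed with another setting and for 380 of 456 with a library left out. Of the other 38, 11 counts moved, 4 values changed sign, 17 gained a call and 6 lost it. Of the other 76, 22 counts moved, 33 values changed sign, 10 gained a call and 11 lost it. With the replicate block these totals passed: on the sense strand in spt6-7SA against WT Ty1 at 0.52, Ty2 at 0.47, Ty3 at 0.75 and Ty4 at 0.26, and between the mutants Ty1 at -0.27 and Ty2 at 0.53. On the antisense strand they were Ty3 in ck2ts at 0.41, Ty1 in spt6-7SA at -0.31 and Ty3 between the mutants at -0.31. Antisense against sense passed in Ty1 in ck2ts at -1.35, and 3' against 5' in Ty2 in ck2ts at 0.65 and between the mutants in Ty2 at -0.64 and Ty3 at -0.61. The block changed the call of no other total. It moved sense calls among genes to 34 higher in ck2ts, 39 higher in spt6-7SA and 9 higher and 17 lower between the mutants, and antisense calls to 15 higher in ck2ts and 11 higher and 5 lower between the mutants. DESeq2 called Ty1 in spt6-7SA (0.50, adjusted p = 0.0450) and gave 20 genes higher there, 4 higher and 4 lower between the mutants, and 3 antisense levels higher between them. Over all 7110 features DESeq2 gave 1768 higher and 1792 lower on the sense strand in spt6-7SA, and 1891 and 1765 between the mutants. On the antisense strand it gave 787 higher and 1789 lower of 7066 between the mutants. Ty3 sense in ck2ts missed the threshold with no count filter (0.84, adjusted p = 0.0517), with DESeq2 (0.84, adjusted p = 0.0557) and with 1 gene per element (0.84, adjusted p = 0.0518), the last chosen after the data were seen. Ty3 antisense in ck2ts passed with no count filter (0.41, adjusted p = 0.0479) and on TYB alone (0.58, adjusted p = 0.00578). Ty4 antisense against sense in ck2ts passed with at least 50 reads in 2 libraries (0.83, adjusted p = 0.0266). On TYB alone, which holds few antisense reads, the antisense changes of Ty1 in ck2ts (-0.59, adjusted p = 0.417), Ty2 in ck2ts (0.62, adjusted p = 0.103) and Ty2 in spt6-7SA (0.45, adjusted p = 0.271) missed it. There the Ty2 sense change in ck2ts was 0.022 and the Ty2 antisense difference between the mutants -0.18, each of the other sign and not called. Taken as a median over copies, the TYB share in spt6-7SA against WT differed by 0.426 percentage points in Ty1 and by 0.00147 in Ty2, also of the other sign. Where no reason is given, the cause was not tested. When each library was left out in turn, these log2 fold changes of family totals ended or gained a call or changed sign, and their ranges were as follows. For ck2ts against WT, sense ran from 0.51 to 1.09 in Ty1, -0.37 to 0.27 in Ty2 and 0.46 to 1.14 in Ty3. For spt6-7SA against WT, sense ran from 0.26 to 0.83 in Ty1 and 0.48 to 1.02 in Ty3. For spt6-7SA against ck2ts, sense ran from -0.39 to 0.30 in Ty3. For ck2ts against WT, antisense ran from 0.32 to 0.65 in Ty2 and 0.18 to 0.62 in Ty3. For spt6-7SA against WT, antisense ran from 0.42 to 0.76 in Ty2, -0.10 to 0.29 in Ty3 and 0.52 to 1.07 in Ty4. For spt6-7SA against ck2ts, antisense ran from -0.029 to 0.24 in Ty2, -0.52 to -0.083 in Ty3 and -1.29 to -0.75 in Ty4. For ck2ts against WT, antisense against sense ran from -1.71 to -0.99 in Ty1, -0.98 to 0.15 in Ty3 and 0.75 to 0.92 in Ty4. For spt6-7SA against WT, antisense against sense ran from -0.36 to 0.59 in Ty2. For spt6-7SA against ck2ts, antisense against sense ran from -0.80 to 0.32 in Ty3. For ck2ts against WT, 3' against 5' ran from -0.48 to 0.26 in Ty1 and -0.18 to 0.69 in Ty3. For spt6-7SA against WT, 3' against 5' ran from -0.21 to 0.85 in Ty1, -0.17 to 0.19 in Ty2, -0.79 to 0.042 in Ty3 and -0.14 to 0.19 in Ty4. For spt6-7SA against ck2ts, 3' against 5' ran from -0.10 to 0.96 in Ty1. Sense calls among genes, ck2ts against WT, numbered 11 to 23 higher. Sense calls among genes, spt6-7SA against WT, numbered 0 to 19 higher. Sense calls among genes, spt6-7SA against ck2ts, numbered 0 to 3 higher and 1 to 2 lower. Antisense calls among genes, ck2ts against WT, numbered 4 to 15 higher and 8 to 18 lower. Antisense calls among genes, spt6-7SA against WT, numbered 3 to 12 higher and 0 to 8 lower. Antisense calls among genes, spt6-7SA against ck2ts, numbered 2 to 7 higher and 1 to 4 lower. For ck2ts against WT, the difference in percentage points ran from -0.804 to 1.15 for the TYB share of Ty3, -13.3 to 1.98 for the antisense share of Ty3, -0.175 to 2.46 for the TYB share of Ty4. For spt6-7SA against WT, the difference in percentage points ran from -1.41 to 0.757 for the TYB share of Ty2, -0.177 to 0.237 for the antisense share of Ty2, -0.949 to 0.0803 for the TYB share of Ty4. For spt6-7SA against ck2ts, the difference in percentage points ran from -11.1 to 4.25 for the antisense share of Ty3.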

Other observations

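Ty reading frames that the rule did not take in gave these values. YPL060C-A, on the Ty4 element of chromosome XVI, stood at 52.0 ± 8.80 CPM in WT (SD, n = 2), 103 ± 15.5 in ck2ts and 64.4 ± 7.73 in spt6-7SA. It rose in ck2ts by 0.99 on the log2 scale (edgeR adjusted p = 0.0012), and in spt6-7SA it had a log2 fold change of 0.31 (edgeR adjusted p = 0.145, with the replicate block 0.00134). On its antisense strand it rose by 1.29 in ck2ts (edgeR adjusted p = 0.000459) and by 0.69 in spt6-7SA (edgeR adjusted p = 0.0434). It shares reads with the other Ty4 genes. Without the block, the frame YJL114W rose in ck2ts on the sense strand (log2 fold change 0.63, edgeR adjusted p = 0.0149) and the antisense strand (1.10, edgeR adjusted p = 0.0255). Its antisense reads were few, at 29 and 21 in WT and 46 and 46 in ck2ts. In spt6-7SA the frame was called on neither strand (0.13 and -0.03, edgeR adjusted p = 0.551 and 0.963). How many of its reads are shared with other Ty genes was not measured.

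The Ty1 element on chromosome I carries TYA and TYB as separate genes. On the sense strand neither YAR009C nor YAR010C passed the unblocked test in ck2ts (log2 fold changes 0.43 and 0.46, edgeR adjusted p = 0.0889 and 0.207). Nor did they in spt6-7SA (0.49 and 0.22, edgeR adjusted p = 0.0730 and 0.563). Antisense reads of its TYA gene YAR010C stood at 27.8 ± 1.16 CPM in WT (SD, n = 2). They fell to 16.7 ± 1.97 in ck2ts (edgeR adjusted p = 0.000247) and to 21.7 ± 0.0365 in spt6-7SA (edgeR adjusted p = 0.0439). Copies of Ty1 share reads, and these counts were close to those of YPR137C-B in every library. In WT they were 2155 and 1652 against 2166 and 1681, and in ck2ts 1174 and 828 against 1179 and 833. In spt6-7SA they were 1446 and 1488 against 1453 and 1508. The falls of YAR010C are thus not independent of those given for the Ty1 genes above. The Ty5 remnant on chromosome III gave 3 sense reads in each ck2ts library, 5 and 3 in the spt6-7SA libraries and 0 in both WT libraries for its gene YCL074W.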
